A study of Caenorhabditis elegans with 8 samples.

Results

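Described here are 5 piRNA loci that lie in exons of protein-coding genes outside chromosome IV, out of 9742 piRNAs listed for *Caenorhabditis elegans*. They are 21ur-10824 and 21ur-12864, which run in the direction of their host exon, and 21ur-10492, 21ur-10687 and 21ur-12557, which run against it. All 5 were picked by identifier, from 58 listed loci of this kind, and with their levels already known. Each has a mean of at least 1 RPM (reads per 1000000 reads of a library) over 8 libraries, and their levels and changes are therefore given as a description. Small RNAs of whole worms were sequenced from kin-3 worms cultured with 500 µM IAA (auxin), and from prde-1, prg-1 and WT worms, for which no IAA is stated. There are 2 libraries for each of the 4 genotypes. The genotypes beside WT are called mutants for brevity. The labels name the genotypes by gene alone, with no allele and no age, so that kin-3 against WT holds the genotype and the IAA together. KIN-3 is the casein kinase II subunit that carries the kinase activity, PRDE-1 belongs to the complex that acts upstream of piRNA genes, and PRG-1 is the Piwi protein that binds piRNAs. All libraries were treated with PIR-1, an enzyme that trims the triphosphate at the 5′ end of small RNAs and makes them fit for ligation.

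Worm piRNAs, or 21U-RNAs, are made from a very large number of short transcription units, most of which sit in clusters on chromosome IV and carry a shared upstream motif that the PRDE-1 complex recognises. A smaller class arises near the starts of other genes without that motif. Mature piRNAs are bound by PRG-1 in the germline, where they direct an RNA polymerase to make antisense small RNAs, the 22G-RNAs, on their targets. 22G-RNAs run against coding exons and carry a 5′ triphosphate. The table gives a level by position only, so a 21U-RNA and another small RNA counted at the same place cannot be told apart in it.

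The hosts of the 5 loci are 4 coding genes with 1 annotated transcript each, and positions are those of WBcel235. 21ur-10824 (cel-piR-15149 in the table) lies on chromosome III at 2295350 to 2295370 on the minus strand, entirely in the 3′ UTR of Y54F10BM.9, in exon 16 of 16 and 22 nt from the annotated transcript end. 21ur-12864 (cel-piR-15263) lies on chromosome II at 1255983 to 1256003 on the plus strand, entirely in the 5′ UTR of clec-119, a C-type lectin domain gene, in exon 1 of 9 and 46 nt from the annotated start. 21ur-10687 (cel-piR-15165, chromosome II, 13246773 to 13246793, minus strand) and 21ur-10492 (cel-piR-15164, chromosome II, 13247294 to 13247314, minus strand) are both antisense to coding sequence of F15D4.5, in exons 5 and 6 of 7, and start 521 nt apart. 21ur-12557 (cel-piR-229) lies on chromosome V at 17156026 to 17156046 on the plus strand, antisense to the last exon of F40D4.13. It covers the stop codon of that gene, with 11 nt in coding sequence before it and 7 nt in the 3′ UTR after it. The loci therefore share a host class and no place within the host.

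**Figure D1:**
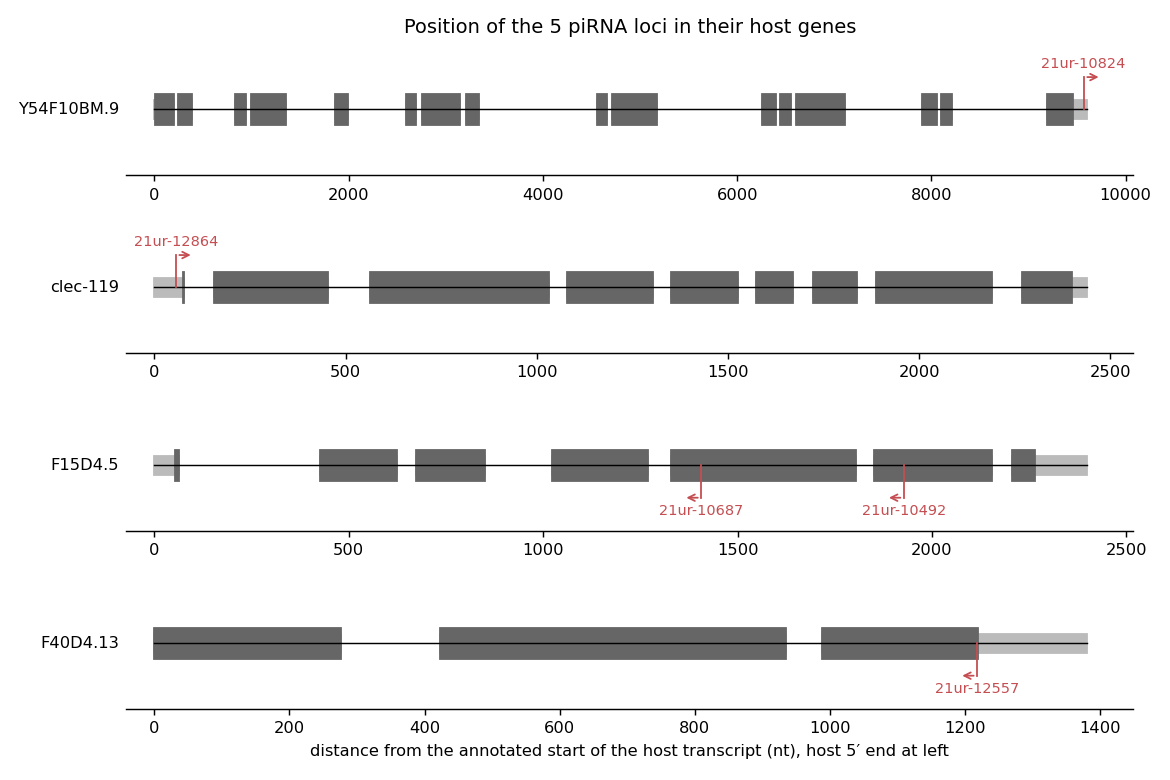
Each row is 1 host transcript drawn to scale from its annotated 5′ end at left, with the distance from that end in nt on the x axis. Wide dark boxes are coding sequence, narrow light boxes are UTRs, lines are introns, and red arrows give the 5 loci with their direction (above the line for sense, below it for antisense). 21ur-10824 sits 22 nt from the transcript end, 21ur-12864 sits 46 nt from the start, and 21ur-12557 sits over the end of the coding sequence.

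Neighbours also set the loci apart from each other. 21ur-10824 overlaps another listed piRNA on the same strand, 21ur-11898, by 19 of its 21 nt, with starts 2 nt apart. 21ur-11898 had 0 and 1 read in the kin-3 libraries, 3 and 8 reads in prde-1 and none in prg-1 or WT, so almost all reads here were assigned to 21ur-10824. 21ur-12557 and 21ur-12864 stand alone, with the nearest listed piRNA 836859 and 678703 nt away.

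The read totals to which the authors scaled, recovered from the smallest value in each column, were 341001 and 562081 for the kin-3 libraries, 5337646 and 5608712 for those of prde-1, 969718 and 699884 for those of prg-1 and 1342764 and 913321 for those of WT. One read is thus worth 2.93 and 1.78 RPM in kin-3 and 0.187 and 0.178 RPM in prde-1, so that the kin-3 values rest on few reads. All listed piRNAs together summed to 240.5 and 208 RPM in kin-3, 385 and 402 RPM in prde-1, 228.9 and 223 RPM in prg-1, and 13327 and 13037 RPM in WT. The prde-1 libraries are the deepest by a wide margin, and the part of depth in the values below was not tested. The labels do not tell whether the libraries of 1 genotype stem from different cultures. Errors and p-values thus cover the spread between libraries, and this spread may be only technical. The table holds piRNAs only, so the tissue could not be checked against marker genes.

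The sense locus in a 3′ UTR, 21ur-10824, was highest in prde-1 and nearly level between kin-3 and WT. Its level was 14.7 and 10.7 RPM in kin-3, 37.3 and 45.8 RPM in prde-1, 18.6 and 22.9 RPM in prg-1, and 11.9 and 12.04 RPM in WT. Both prde-1 libraries lay above every other library, both prg-1 libraries lay above kin-3 and WT, and the kin-3 libraries fell on either side of WT. The mean was 41.6 ± 6.04 RPM in prde-1 and 11.98 ± 0.0907 RPM in WT (SD, n = 2 each), 3.47-fold higher. On pooled reads, 456 in prde-1 and 27 in WT, the ratio was 3.48 (95% counting interval 2.36 to 5.34). In prg-1 the mean was 20.7 ± 3.04 RPM, 1.73-fold the WT level, and the pooled ratio of 1.70 had an interval of 0.997 to 2.93 that just reaches 1. The kin-3 mean was 12.7 ± 2.82 RPM on 11 reads, and the pooled ratio to WT was 1.02 (0.456 to 2.12).

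The sense locus in a 5′ UTR, 21ur-12864, was too rare to order the genotypes. It had 0 and 3.56 RPM in kin-3, 2.81 and 3.92 RPM in prde-1, 2.06 and 2.86 RPM in prg-1, and 0 and 4.38 RPM in WT. The WT range spans all the other libraries, and no neighbours in the order prde-1, prg-1, WT, kin-3 stood apart. The pooled ratio to WT was 1.25 in kin-3 (95% counting interval 0.113 to 8.72), 1.91 in prde-1 (0.685 to 7.36) and 1.35 in prg-1 (0.252 to 7.25), on 4 WT reads. As scaled by the authors, a change at this locus was not detectable at this depth, while under TMM rescaling 21ur-12864 was called higher in prde-1 (log2 difference 3.65, limma adjusted p 0.0037, which over all alternatives ranged up to 0.795). TMM rescaling takes most piRNAs as unchanged, which does not hold for those tested here, as given below.

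The antisense pair in F15D4.5 held 1 abundant and 1 rare locus, and their levels did not move together. 21ur-10492, the abundant one, had 17.6 and 21.3 RPM in kin-3, 42.2 and 35.8 RPM in prde-1, 15.5 and 11.4 RPM in prg-1, and 19.4 and 14.2 RPM in WT. Both prde-1 libraries lay above all others, while kin-3 and WT overlapped, and so did prg-1 and WT. The prde-1 mean of 39.0 ± 4.47 RPM was 2.32-fold the WT mean of 16.8 ± 3.63 RPM (SD, n = 2 each), with a pooled ratio of 2.25 (95% counting interval 1.62 to 3.21; 426 reads in prde-1 and 39 in WT). The pooled ratio to WT was 1.15 in kin-3 (0.621 to 2.06) and 0.797 in prg-1 (0.454 to 1.37).

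21ur-10687, 500 nt away on the same strand, was lower than WT in every mutant library as scaled by the authors, and on average above WT in prde-1 and prg-1 under TMM rescaling. It had 2.93 and 1.78 RPM in kin-3, 3.18 and 3.92 RPM in prde-1, 4.12 and 2.86 RPM in prg-1, and 4.47 and 6.57 RPM in WT. The groups are close and the reads few, and only WT stood apart from its neighbour in the order WT, prde-1, prg-1, kin-3. The pooled ratio to WT was 0.416 in kin-3 (95% counting interval 0.0453 to 1.87, on 2 reads), 0.670 in prde-1 (0.344 to 1.41) and 0.676 in prg-1 (0.208 to 1.94). Each of these intervals holds 1. Within F15D4.5, reads of 21ur-10492 outnumbered those of 21ur-10687 by 6 and 12 to 1 in kin-3, 13.2 and 9.14 to 1 in prde-1, 3.75 and 4 to 1 in prg-1, and 4.33 and 2.17 to 1 in WT. This ratio needs no scaling between libraries. It was above both WT values in every kin-3 and prde-1 library, with a single read of 21ur-10687 in each kin-3 library, and prg-1 lay within the WT range.

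21ur-12557, antisense across the stop codon of F40D4.13, was the locus that came nearest to the loss seen at piRNAs in general. It had 5.87 and 1.78 RPM in kin-3, 0.562 and 0.535 RPM in prde-1, 0 and 0 RPM in prg-1, and 8.19 and 7.66 RPM in WT. The 4 genotypes did not overlap, in the order WT, kin-3, prde-1, prg-1. One read is worth 1.03 and 1.43 RPM in the prg-1 libraries, above both prde-1 values, so depth does not let prde-1 and prg-1 be ordered. The 95% counting interval of prde-1 over prg-1, on 6 and 0 reads, starts at 0.180 and has no upper end. The mean was 0.548 ± 0.0192 RPM in prde-1 and 7.93 ± 0.373 RPM in WT (SD, n = 2 each), and on pooled reads prde-1 was 14.6-fold lower (95% counting interval 5.54 to 44.8; 6 reads in prde-1 and 18 in WT). No prg-1 read was found, which against a floor of 3 reads in the pooled prg-1 libraries (1.80 RPM) makes the level at least 4.41-fold lower than the WT mean. The 95% counting interval of the pooled ratio, on 0 and 18 reads, reaches up to 0.307, so with counting error in WT included the level was at least 3.25-fold lower. In kin-3 it averaged 3.82 ± 2.89 RPM on 3 reads, and the pooled ratio to WT was 0.416 (0.0786 to 1.43). The kin-3 libraries differ from each other by 1 read, and the interval of kin-3 over prde-1, 6.06 (0.981 to 28.4), also reaches 1.

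**Figure D2:**
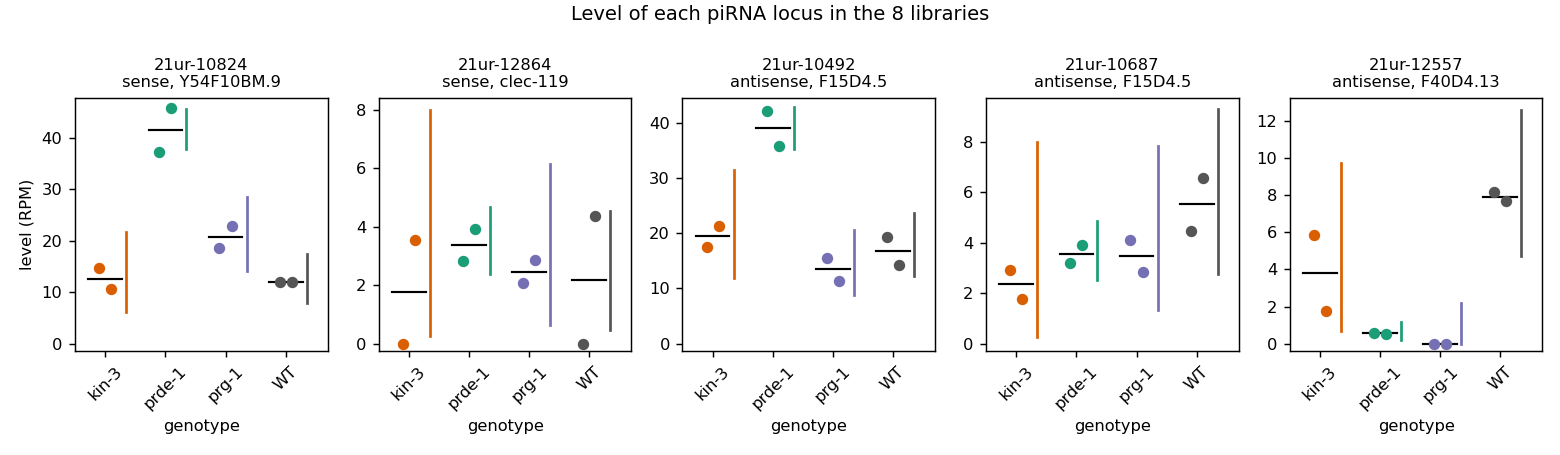
Level in RPM (y axis, own scale in each panel) of the 5 loci by genotype (x axis). Points are the 2 libraries, black bars their mean, and coloured lines at right the exact 95% counting interval of the pooled reads. 21ur-10824 and 21ur-10492 are highest in prde-1, at 41.6 and 39.0 RPM on average, whereas 21ur-12557 is at 7.93 RPM in WT and at 0.548 RPM in prde-1 and 0 in prg-1.

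On the log2(RPM + 1) scale, which understates the change of low loci, the locus-by-locus difference from WT in a limma fit of all 695 piRNAs with a mean of at least 1 RPM had the following sizes. In prde-1, 21ur-10824 differed by 1.71 (SE 0.20), 21ur-10492 by 1.18 (SE 0.23), 21ur-12864 by 0.90 (SE 1.04), 21ur-10687 by -0.50 (SE 0.26) and 21ur-12557 by -2.53 (SE 0.41). In prg-1 the same loci differed by 0.74, -0.30, 0.57, -0.53 and -3.16, and in kin-3 by 0.06, 0.21, -0.12, -0.96 and -1.03. Over all 695 tested piRNAs the median was -3.06 for kin-3, -3.06 for prde-1 and -3.04 for prg-1 against WT. 21ur-12557 in prg-1 alone was below that median. Of the 695, 684 would have passed the filter on WT reads alone and 13 on mutant reads alone, so the filter itself favours a low median. Without the filter, over 4878 piRNAs with a read, the median was -0.85 in each mutant. Below this value were 21ur-12557 in each mutant and 21ur-10687 in kin-3. TMM rescaling, whose factors are 0.186 and 0.150 in prde-1 and 1.16 to 2.49 elsewhere, moved the medians of the 695 to -2.05, -2.02 and -2.04. Under it the values of 21ur-10687 in prde-1 and prg-1, of 21ur-10492 in prg-1 and of 21ur-12864 in kin-3 turned positive (2.74, 0.22, 0.57 and 0.02), and 21ur-12557 in prde-1 stood at -0.04.

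**Figure D3:**
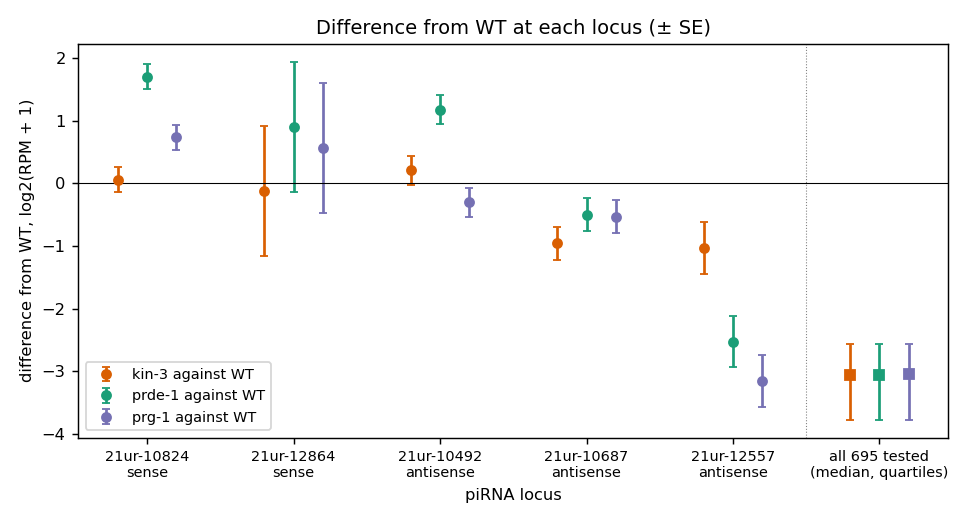
Difference from WT in log2(RPM + 1) (y axis) with its SE for each locus and each mutant (x axis). Squares at right give the median of all 695 tested piRNAs with lines to the quartiles, -3.78 and -2.57 in each mutant. Of these 695, 684 would have passed the filter on WT reads alone. Except for 21ur-12557 in prde-1 and prg-1, the loci lie well above those quartiles.

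That limma fit called 1 of the 5 loci at an adjusted p under 0.05 for kin-3, 3 of them for prde-1 and 2 for prg-1. In kin-3, none was called higher (background 0.288% of 695) and 21ur-10687 was called lower (background 97.8%), while 21ur-10687 and 21ur-12557 had both libraries below both WT libraries (background 98.3%) and none had both above (0.288%). In prde-1, 21ur-10824 and 21ur-10492 were called higher (background 0.863%) and 21ur-12557 lower (98.3%), with the same 2 loci wholly above WT (1.01%) and 21ur-10687 and 21ur-12557 wholly below (98.6%). In prg-1, 21ur-10824 was called higher (background 0.432%) and 21ur-12557 lower (98.0%), with 21ur-10824 wholly above WT (0.576%) and 21ur-10687 and 21ur-12557 wholly below (98.4%). These values chose the loci, so nothing is read from the counts. The kin-3 call of 21ur-10687, on 2 reads, ended in limma without kin-3 replicate 2 or WT replicate 2 (adjusted p 0.0665 and 0.121), under TMM rescaling (0.0527) and in edgeR (0.221). The prg-1 call of 21ur-10824 ended in limma without prg-1 replicate 2, WT replicate 1 or WT replicate 2 (adjusted p 0.0752, 0.0859 and 0.0820), without the filter (0.0757) and in edgeR (0.0740). In kin-3, 21ur-12557 (limma adjusted p = 0.0550) was called with pseudocount 5 (0.0402) and under TMM rescaling (0.0473). It was also called with a single kin-3 library, but its log2 difference of -1.03 became -1.68 without kin-3 replicate 1 (2.9e-05) and -0.38 without kin-3 replicate 2 (0.0034), so its size rests on which library is kept. In prde-1, TMM rescaling ended the call of 21ur-12557 (limma adjusted p 0.906). It also had 21ur-10687 called higher (log2 difference 2.74, limma adjusted p 0.00022, and up to 0.486 over all alternatives), although that locus was below WT as scaled by the authors, and 21ur-12864 called higher as given above.

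Coding exon loci on chromosome IV, which share the kind of host, give the contrast. All 14 of those tested were called lower in each mutant, but none of the 14 would have passed the filter of 1 RPM on mutant reads alone, so these calls are no support for a difference from the 5 loci. Summed over all 344 listed loci of that kind, without a filter, the level was 5.34 ± 7.55 RPM in kin-3, 2.65 ± 0.0364 RPM in prde-1, 6.67 ± 0.676 RPM in prg-1 and 325 ± 7.12 RPM in WT (SD, n = 2 each). Of the 6 tested loci off chromosome IV outside coding exons, all of which would have passed on mutant reads alone, limma called 2 higher and 0 lower for kin-3, 3 and 1 for prde-1, and 2 and 0 for prg-1. Only 2 of the 6 would have passed on WT reads alone, so these calls are no support for a difference either. A filter on the mean over all libraries can favour loci high in WT or loci that keep reads in the mutants. Of all 695 tested piRNAs, 684 would have passed it on WT reads alone and 13 on mutant reads alone. Of the 5 loci, 21ur-12864 passed it only through mutant reads, since its WT reads alone would give a mean of 0.547 RPM, and the other 4 would have passed on WT reads alone, at 1.38 to 4.20 RPM.

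**Figure D4:**
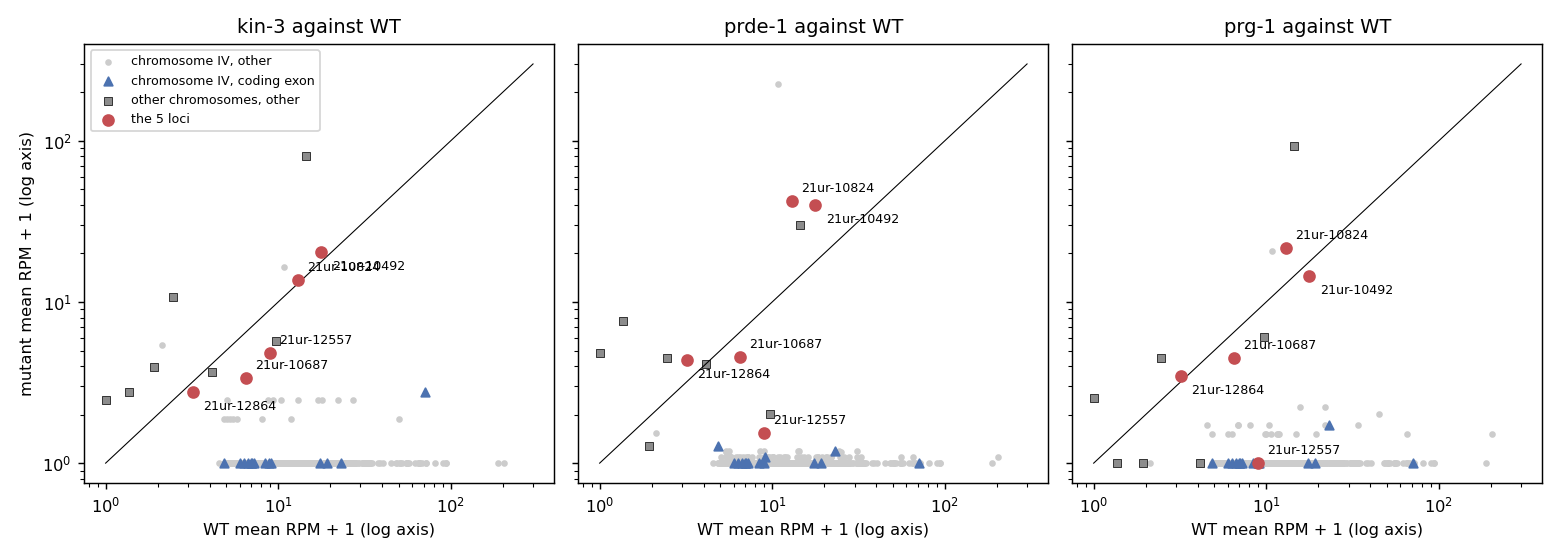
Mean level in each mutant (y axis) against the mean level in WT (x axis), both as RPM + 1 on log axes, for the 695 tested piRNAs. Points on the diagonal have equal levels. Of the 5 loci (red), 21ur-10824 and 21ur-10492 lie above the diagonal in prde-1, and 21ur-10687 lies below it in each mutant (as scaled by the authors, not under TMM rescaling in prde-1 and prg-1). In prde-1 and prg-1, 21ur-12557 lies farthest below it of the 5, at 0.548 and 0 RPM. The 14 coding exon loci of chromosome IV (blue triangles) lie along the bottom.

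Summed, the 5 loci stood at 41.1 and 39.1 RPM in kin-3, 86.0 and 90.0 RPM in prde-1, 40.2 and 40.01 RPM in prg-1, and 43.9 and 44.9 RPM in WT. The sum was thus 0.903 of WT in kin-3 (95% counting interval of the pooled ratio 0.597 to 1.33), 1.98 times WT in prde-1 (1.62 to 2.47) and 0.903 of WT in prg-1 (0.654 to 1.25). With TMM rescaling, whose premise is not met here, these became 0.986, 27.9 and 1.76, so the direction in prg-1 depends on the scaling. Of all reads assigned to listed piRNAs, the 5 loci held 17.1% and 18.8% in kin-3 libraries, 22.3% and 22.4% in prde-1 libraries and 17.6% and 17.9% in prg-1 libraries, against 0.330% and 0.344% in WT libraries. This share needs no scaling between libraries, but its total was 208 to 402 RPM in the mutants and 13037 and 13327 RPM in WT, so it can differ with no change of the 5 loci themselves. Shares of other loci off chromosome IV were also above WT. The 51 outside coding exons held 43.9% and 46.2% of the reads in kin-3, 13.6% and 12.3% in prde-1 and 45.05% and 48.1% in prg-1, against 0.246% and 0.260% in WT. The other 53 in coding exons held 3.66% and 3.42% in kin-3, 1.07% and 1.46% in prde-1 and 0.450% and 0.641% in prg-1, against 0.0671% and 0.0924% in WT.

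Split by orientation and without rescaling, the sense sum lay above WT in prde-1 and prg-1, while the antisense sum lay above WT in prde-1 and below it in prg-1. The 2 sense loci summed to 14.4 ± 0.304 RPM in kin-3, 44.9 ± 6.82 RPM in prde-1, 23.2 ± 3.60 RPM in prg-1 and 14.2 ± 3.19 RPM in WT (SD, n = 2 each). Their pooled ratio to WT was 1.05 in kin-3 (95% counting interval 0.503 to 2.06), 3.28 in prde-1 (2.28 to 4.88) and 1.66 in prg-1 (1.004 to 2.75). The 3 antisense loci summed to 25.7 ± 1.05 RPM in kin-3, 43.1 ± 3.96 RPM in prde-1, 16.9 ± 3.75 RPM in prg-1 and 30.2 ± 2.51 RPM in WT. Their pooled ratio to WT was 0.833 in kin-3 (0.496 to 1.35), 1.41 in prde-1 (1.09 to 1.84) and 0.568 in prg-1 (0.355 to 0.888), and under TMM rescaling the ratio of means in prg-1 turned from 0.560 to 1.09.

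The antisense share of the summed level does not depend on scaling. It was 64.3% and 63.6% in kin-3 libraries, 53.4% and 44.8% in prde-1 libraries, 48.7% and 35.7% in prg-1 libraries, and 72.9% and 63.4% in WT libraries. Exact 95% intervals on reads reached from 35.1% to 87.2% and from 40.7% to 82.8% for kin-3, from 48.7% to 58.0% and from 40.4% to 49.2% for prde-1, from 32.4% to 65.2% and from 18.6% to 55.9% for prg-1, and from 59.7% to 83.6% and from 46.9% to 77.9% for WT. Both prde-1 and both prg-1 libraries lay below both WT libraries, and the kin-3 libraries lay within the WT range. 21ur-10824 held most of the sense sum and 21ur-10492 most of the antisense sum in each genotype, the latter least so in WT. There 21ur-10492 had 16.8 of 30.2 RPM, with 7.93 RPM from 21ur-12557 and 5.52 RPM from 21ur-10687. From WT to prg-1, 21ur-10492 went from 16.8 to 13.4 RPM and 21ur-12557 from 7.93 to 0 RPM. A comparison by orientation thus sets a few unequal loci against each other. Without 21ur-10492 the mean share was 28.8% for kin-3, 8.39% for prde-1, 13.3% for prg-1, against 49.0% for WT, and the antisense sum in prde-1 turned from 1.42 to 0.305 of WT. Orientation itself was therefore not tested by these 5 loci.

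**Figure D5:**
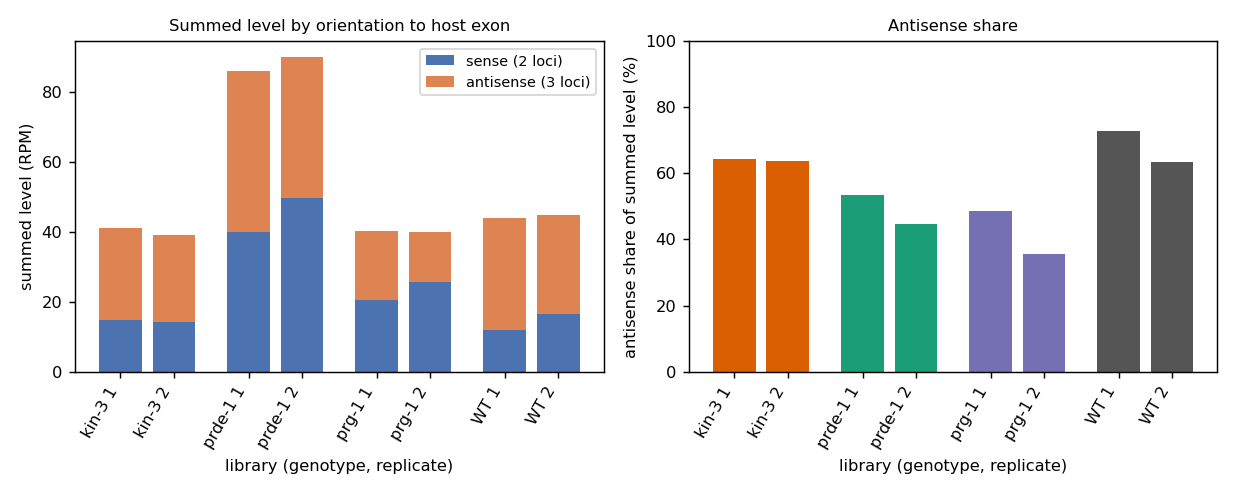
Left, summed level in RPM (y axis) of the 2 sense loci and the 3 antisense loci in each library (x axis). Right, the antisense share of that sum in percent, which lies between 35.7% and 53.4% in prde-1 and prg-1 and between 63.4% and 72.9% in kin-3 and WT.

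The 58 listed coding exon loci off chromosome IV comprise 31 sense loci, 26 antisense loci and 1 that overlaps exons on both strands. Of them, 25 had a read in any library, 14 of these sense and 10 antisense. Next to the threshold of 1 RPM lie 21ur-12937, sense to F21C3.7 on chromosome I, at a mean of 1.03 RPM and outside the 5 loci, and 21ur-15067, sense to F09C12.8, at 0.569 RPM. 21ur-12937 had 2 and 0 reads in kin-3, 2 and 1 reads in prde-1, no read in prg-1 and 1 read in each WT library. The 53 loci other than the 5 summed to 7.96 ± 1.19 RPM in kin-3 (7 reads), 5.003 ± 1.25 RPM in prde-1 (55 reads), 1.23 ± 0.281 RPM in prg-1 (2 reads) and 10.5 ± 2.20 RPM in WT (23 reads). Their pooled ratio to WT was 0.760 in kin-3 (95% counting interval 0.276 to 1.83), 0.493 in prde-1 (0.298 to 0.840) and 0.118 in prg-1 (0.0134 to 0.476). As scaled by the authors, the sum of the 53 was thus lower than both WT libraries in both libraries of each mutant, with an interval that holds 1 for kin-3, but under TMM rescaling its prde-1 level was 6.88 times that of WT and its prg-1 level 0.229 of it.

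Among the tested piRNAs, the profile over the 8 libraries most like that of 21ur-10824 was that of 21ur-1430 (Pearson r of log2(RPM + 1) 0.88), a chromosome IV locus at 226 RPM in prde-1 and 9.79 RPM in WT, followed by 21ur-13684 (0.68) and 21ur-10492 (0.64). For 21ur-10492 they were 21ur-15587 (0.92), 21ur-1430 (0.84) and 21ur-10824 (0.64). 21ur-12557 was instead most like piRNAs of chromosome IV, 21ur-8118, 21ur-609 and 21ur-1022 (0.94, 0.93 and 0.93), which had 4.05, 7.75 and 8.30 RPM in WT and 1.47 RPM each in kin-3. 21ur-10687 was also nearest to chromosome IV loci, 21ur-4819, 21ur-4408 and 21ur-1267 (0.83, 0.83 and 0.80), although these had no kin-3 or prde-1 read. For 21ur-12864 no tested piRNA exceeded 0.49, that of 21ur-1430, with 21ur-15587 and 21ur-10824 next (0.37 and 0.36). Between the 2 loci of F15D4.5 r was -0.16. These correlations describe 8 libraries in 4 genotypes that share depth and scaling.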

How the data were processed

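Small RNA libraries of whole worms were made from column-enriched small RNA treated with PIR-1, per the labels' protocols. cutadapt 1.18 and Bowtie 1.2.1.1 are named, per the submitters' processing notes. Not given in the sources used here are their settings, the genome build, how reads with several matches were handled and which reads the scaling total counts. One table of 9742 piRNAs was deposited, with values the authors had turned into RPM. All 7488 positive values (100%, tolerance 0.01 reads) were whole multiples of the smallest in their column, which was taken as 1 read and gave reads and totals. The kin-3 and prg-1 columns hold only 36 to 75 positive values each, too few for a firm check, so their reads, totals and intervals rest on that step; those of prde-1 hold 127 and 130 and those of WT 3818 and 3220. Of the listed piRNAs, 9620 matched an Ensembl release 115 piRNA gene of WBcel235 by position and strand, including all 5 described. A coding exon is any exon of a protein-coding gene. No value column was left unused. No sequence was used.

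limma 3.58.1 (R 4.3.3, trended prior, two-sided, Benjamini-Hochberg over 695 piRNAs) was fitted to log2(RPM + 1) of all 8 libraries by genotype, after tests on simulated data. The planned main test depended on the unit, and the normalized-value test applied. edgeR 4.0.16 on recovered reads was an alternative, with library totals as sizes. Of 695, it called 675 lower and 2 higher in kin-3, 683 and 6 in prde-1, and 683 and 2 in prg-1, where limma called 680 and 2, 683 and 6, and 681 and 3. Intervals are exact (Poisson, conditional binomial or Clopper-Pearson) at 95% and cover counting error only, as does the floor of 3 reads. All 5 loci are named, with the 3 tested piRNAs of highest correlation with each and the loci next to 1 RPM. 21ur-11898 was named for its overlap. The loci, lists and tests were chosen with earlier results of these data known.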

Additional observations from a re-analysis of the deposited data

How the results depend on the processing

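Under 16 alternatives, loci called lower in kin-3 numbered 2 with pseudocount 5, 0 with a mean of at least 10 RPM, 0 in edgeR and 0 to 2 with 1 library left out, against 1 in the fit reported. In prde-1, TMM rescaling gave 4 called higher and 0 lower, and the mean of at least 10 RPM, which keeps only 21ur-10492 and 21ur-10824, gave 0 lower. In prg-1, those called higher were 0 without the filter, 0 in edgeR and 0 to 1 with a library left out, and those called lower were 0 at a mean of at least 10 RPM. The replicate block kept every count (1 lower in kin-3, 2 higher and 1 lower in prde-1, 1 and 1 in prg-1). Same-numbered libraries deviated together with r of -0.03 to 0.07, so the numbers are not taken as pairs.

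Without 21ur-10492, the highest locus, the summed ratio to WT was 0.747 with kin-3 on top, 1.78 with prde-1 and 0.965 with prg-1. Under TMM rescaling, whose premise is not met here, these ratios for all 5 loci were 0.986, 27.9 and 1.76. With a library left out they ranged from 0.881 to 0.924, 1.94 to 2.03 and 0.894 to 0.913. The antisense share without that locus was 28.8%, 8.39% and 13.3% in these mutants and 49.0% in WT. With a library left out it ranged from 63.6% to 64.3%, 44.8% to 53.4% and 35.7% to 48.7%, and from 63.4% to 72.9% in WT. The antisense sums that turned were prde-1 without that locus (0.305) and prg-1 under TMM rescaling (1.09). TMM rescaling of other sums was chosen after seeing the data. It turned the prde-1 sum of the other 53 coding exon loci off chromosome IV to 6.88 times WT. It left the sum of the 344 coding exon loci on chromosome IV below WT, at a ratio of 0.0197 for kin-3, 0.115 for prde-1 and 0.0399 for prg-1.

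Log2 differences changed sign for 21ur-12864 in kin-3 under TMM rescaling and edgeR (0.017 and 0.31), and between -1.33 and 1.09 with a library left out, in prde-1 from -0.31 to 2.11 and in prg-1 from -0.65 to 1.78. They did so for 21ur-10824 in kin-3 (-0.15 to 0.27 with a library left out), and under TMM rescaling for 21ur-10687 in prde-1 and prg-1 (2.74 and 0.22) and 21ur-10492 in prg-1 (0.57). The causes were not tested. A library left out leaves 1 of a genotype, which is assumed to vary like the others. kin-3 depth limits all values of the 3 rarer loci.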
